A study of Homo sapiens with 18 samples.

Results

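The 6 arrays compared here held RNA of Ewing sarcoma cells selected for growth in YK-4-279, 3 clones labelled TC32 and 3 labelled TC71, out of 18 arrays in all. They were chosen by their labels and no measured value entered that rule, although earlier results of these data were known. The TC32 clones are named C1, C4 and CP and the TC71 clones C3, C4A and C5. Per the labels, each clone came from its own parental line, TC32 or TC71, by keeping it for 7 months in rising concentrations of the compound, which ended at 3 µM. Whether the clones still had the compound when RNA was taken, what CP stands for and whether clones of a line were picked independently are not in the labels. On the other 12 arrays were 3 samples of each line after 72 h with the compound at 3 µM, and 3 of each untreated parental line. TC32 and TC71 are established cell lines from Ewing sarcoma. Each clone was measured once, so a mean ± SD below runs over 3 clones and the p-values measure the spread between arrays.

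Ewing sarcoma is a tumour of bone and soft tissue that is driven by a fusion protein, most often EWS-FLI1, in which the start of the RNA-binding protein EWS is joined to the DNA-binding end of the transcription factor FLI1. The fusion protein binds runs of GGAA repeats, switches on some genes and holds down others. The compound YK-4-279 was made to keep EWS-FLI1 from touching RNA helicase A, the product of DHX9. Clones that grow out under such a compound carry both the state of the founding cell and whatever changed during selection, and clones of 1 line can differ from each other for either reason.

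All values are log2 levels relative to the median of the same probe set over the 18 arrays, so 0 means the median array and not absence, and levels of different genes cannot be set against each other. For the same reason the markers of Ewing sarcoma cells show only how the clones differ, not whether a marker is present. NR0B1, a nuclear receptor gene switched on by EWS-FLI1, stood at 0.10, 0.31 and -0.09 in TC32 clones C1, C4 and CP, against -0.39, 0.50 and 0.34 in TC71 clones C3, C4A and C5 (difference -0.04, adjusted p = 0.895). NKX2-2, a homeobox gene used to diagnose the tumour, stood at 0.00, 0.95 and 0.48 in the TC32 clones and at 0.70, 0.51 and -0.77 in the TC71 clones (difference 0.33, adjusted p = 0.562). Neither separated the clones of the lines.

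At most genes that set the lines apart elsewhere, the clones labelled TC32 lay nearer the TC71 arrays. In the arrays that are no clones, TC32 parental replicate 1 left out, 71 genes were called between the lines both at 72 h and in the parental arrays, in 1 direction and at least 2-fold each time. At these genes TC32 clones C1, C4 and CP were nearer the TC71 mean for 80.3%, 84.5% and 85.9% of genes, and TC71 clones C3, C4A and C5 for 88.7%, 90.1% and 90.1%. The 3 TC32 72 h arrays and TC32 parental replicates 2 and 3 were nearer the TC71 mean for 0 to 2.82% of them. These arrays and the TC71 arrays outside the clones served to choose the genes and set the means, so their shares follow from the choice. TC32 parental replicate 1, which played no part in choosing these genes, was nearer the TC71 mean for 93% of them. With that array kept, 63 genes chosen by an unadjusted parental p under 0.05 put the TC32 clones nearer TC71 for 43 to 44 genes and the TC71 clones for 47 to 52. Some of the line difference was still seen between the clones. Of these 63 genes, 7 were called between the clones, against 209 of all 12750, and 6 of the 7 had the direction of the lines. By direction alone, 36 of the 63 went with the lines and 27 against them. Below, "TC32 clones" therefore means the clones labelled TC32, and values that rest on TC32 parental replicate 1 are also given without it.

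**Figure D1:**
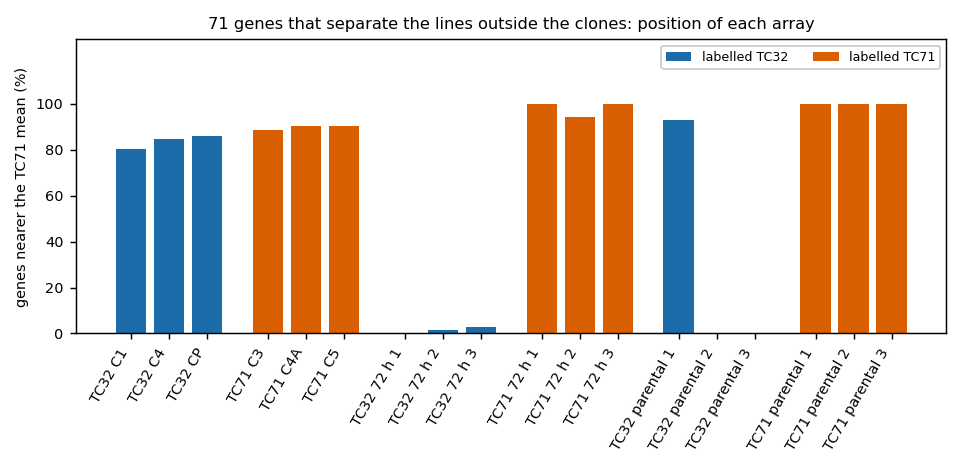
Share of 71 genes (vertical axis, percent) at which each of the 18 arrays (horizontal axis) lay nearer the TC71 mean than the TC32 mean of the arrays that are no clones. Bars are blue for arrays labelled TC32 and orange for arrays labelled TC71. The 3 TC32 clones reach 80.3% to 85.9%, the 3 TC71 clones 88.7% to 90.1%, and TC32 parental replicate 1 reaches 93%. All other arrays served to choose the genes, so their bars follow from the choice.

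Single genes differed in how the clones lay. C14orf132, a gene of unsettled function chosen here after its values were seen, stood at -4.89, -4.92 and -4.92 in the TC32 72 h arrays, against 0.23, -0.58 and 0.39 in the TC71 72 h arrays. It stood at 0.81, -0.08 and 0.35 in the TC32 clones and at -0.14, 0.39 and 0.65 in the TC71 clones. TC32 parental replicates 1, 2 and 3 had it at -0.49, -4.91 and -4.91. All 6 clones and TC32 parental replicate 1 thus lay with the TC71 arrays. FABP7, a brain fatty acid-binding protein gene also picked after its values were seen, was at 7.45, 7.45 and 7.39 in the TC32 72 h arrays, against -0.02, -0.01 and -0.04 in the TC71 72 h arrays. Among the clones it stood at -0.03, -0.04 and 0.02 in TC32 clones and at 6.78, 4.18 and -0.06 in TC71 clones. The high clones were therefore C3 and C4A, both labelled TC71.

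Between the clones, 209 of 12750 genes passed an adjusted p of 0.05 in limma's moderated test over all genes, which is 1.64% (these are the called genes below). TC32 clones were higher at 83 of them (0.651%) and lower at 126 (0.988%), and 12541 genes did not pass. At least 2-fold differences made up 98 of the 209, 23 higher and 75 lower in TC32 clones. The median size of the called differences was 0.96 on the log2 scale and the smallest was 0.09. At all 209 the 3 clones of one line lay outside the range of the other, which held for 37.6% of all genes, and an unadjusted p under 0.05 was found at 1932 genes. The calls rest on a spread that all 6 groups share. A fit of the 6 clone arrays alone called 5 genes, all lower in TC32 clones, so most of the calls need the other 12 arrays. Array weights, which give less influence to arrays that scatter more, were 0.27 to 0.57 for the clones and 0.38 to 6.17 for the other arrays. With them 13 calls were left, and a further quantile normalization left 48. The clones scattered more than the parental arrays over the 1794 genes with an SD of at least 0.5. The mean root mean square difference was 1.34 among TC32 clones and 1.61 among TC71 clones. Among parental arrays it was 0.91 in TC32 and 0.69 in TC71. At genes where the clones scatter more than the other arrays, the shared spread is too small for them and the p-values are too low. An array averages all cells of a culture, so fewer cells with a gene's RNA and less of it per cell cannot be told apart.

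**Figure D2:**
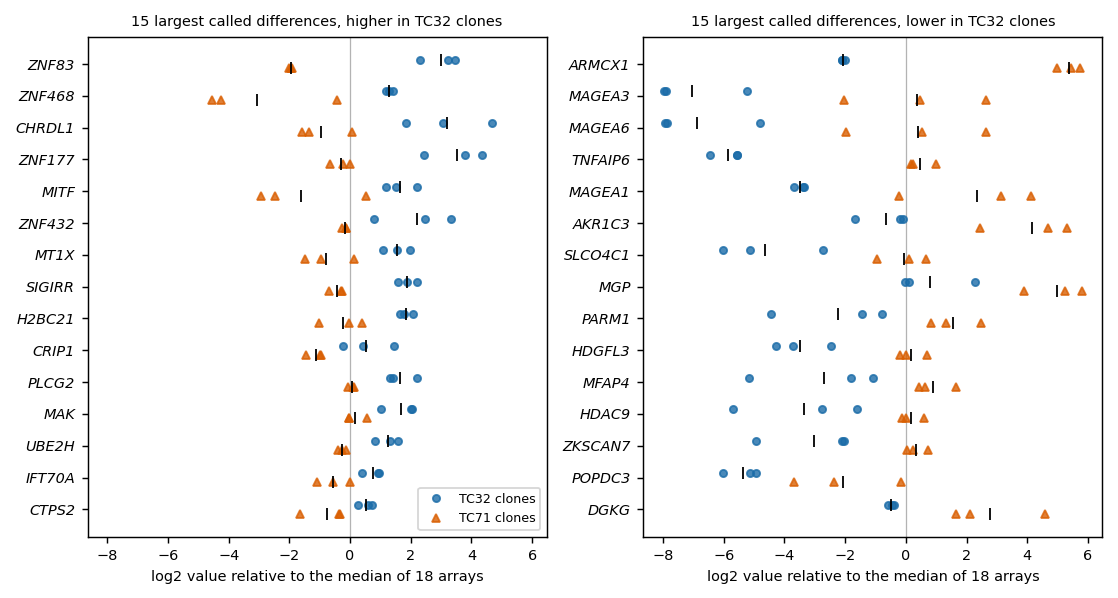
Log2 values relative to the median of 18 arrays (horizontal axis) of the 15 largest called differences in each direction (vertical axis). Blue circles are the 3 TC32 clones, orange triangles the 3 TC71 clones and black ticks the means. The genes run from ZNF83 (difference 4.96) to ARMCX1 (difference -7.45). They were chosen among genes whose clones do not overlap between the lines, which held for 37.6% of all genes.

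Zinc finger genes of chromosome 19 were among the named genes with the largest differences towards TC32 clones. These genes encode DNA-binding proteins, many with a KRAB domain that silences the sites they bind, and lie in clusters of related copies. Of 103 measured, 7 were called higher in TC32 clones (6.8%, against 0.651% of all genes) and 0 lower, among 25 with an unadjusted p under 0.05; array weights called 1 of them and the 6 clone arrays alone called 0. The list median difference was only 0.06, against 0.02 over all genes, so most members differed little.

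The promoters of the 4 zinc finger genes with the largest differences are shown because these genes were high in the same clones. Each runs 5′ to 3′ over the 300 bases around the gene's start in RefSeq (GRCh38.p14), with CG pairs in capitals, the dinucleotide at which DNA is methylated. ZNF83 lies at chr19:52690447-52690746, minus strand, ZNF468 at chr19:52857570-52857869, minus strand, ZNF432 at chr19:52048789-52049088, minus strand and ZNF177 at chr19:9362763-9363062, plus strand.
ZNF83: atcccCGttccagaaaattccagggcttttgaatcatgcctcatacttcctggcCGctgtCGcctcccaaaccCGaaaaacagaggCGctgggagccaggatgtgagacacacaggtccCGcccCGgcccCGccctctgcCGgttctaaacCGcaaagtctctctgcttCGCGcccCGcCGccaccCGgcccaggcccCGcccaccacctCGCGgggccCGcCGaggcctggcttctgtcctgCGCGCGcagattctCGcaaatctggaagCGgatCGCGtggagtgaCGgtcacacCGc
ZNF468: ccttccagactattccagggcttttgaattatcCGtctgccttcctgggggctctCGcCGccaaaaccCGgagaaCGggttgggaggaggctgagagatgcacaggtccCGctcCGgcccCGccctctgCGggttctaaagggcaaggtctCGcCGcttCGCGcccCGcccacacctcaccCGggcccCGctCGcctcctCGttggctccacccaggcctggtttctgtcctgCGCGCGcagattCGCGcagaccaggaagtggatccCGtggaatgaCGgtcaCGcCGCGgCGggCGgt
ZNF432: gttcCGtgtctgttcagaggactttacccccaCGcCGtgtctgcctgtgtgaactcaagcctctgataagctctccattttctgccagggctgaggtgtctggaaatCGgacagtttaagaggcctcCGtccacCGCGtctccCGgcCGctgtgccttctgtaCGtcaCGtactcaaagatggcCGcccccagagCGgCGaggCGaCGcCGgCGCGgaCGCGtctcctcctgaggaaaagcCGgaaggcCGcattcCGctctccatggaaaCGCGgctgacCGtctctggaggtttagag
ZNF177: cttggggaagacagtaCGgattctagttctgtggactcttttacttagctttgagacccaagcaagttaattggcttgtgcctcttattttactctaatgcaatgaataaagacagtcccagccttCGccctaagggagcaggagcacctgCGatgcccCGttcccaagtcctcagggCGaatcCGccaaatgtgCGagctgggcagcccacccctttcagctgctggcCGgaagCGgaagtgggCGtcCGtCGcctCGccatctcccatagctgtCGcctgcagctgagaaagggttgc
They hold 29, 30, 27 and 14 CG pairs in this order, and 36.7%, 34%, 42.7% and 73.3% of 9948 promoters of tested genes hold at least as many. The letters GGAAGGAA, searched on both strands (TTCCTTCC on the other), are in none of the 7 called zinc finger promoters and in 3.5% of all.

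ZNF83 stood at 2.30, 3.47 and 3.24 in TC32 clones C1, C4 and CP, against -1.96, -2.00 and -1.91 in TC71 clones C3, C4A and C5. The difference was 4.96 (SE 0.63), or 31.1-fold (adjusted p = 0.00257), and no clone of a line came near the other line. In the arrays outside the clones the order was the other way round, with -1.76 in TC32 72 h arrays and 2.11 in TC71 72 h arrays (means; difference -3.87, adjusted p = 0.00306). ZNF177 stood at 2.45, 3.79 and 4.35 in the TC32 clones, against -0.23, 0.00 and -0.65 in the TC71 clones (difference 3.82, SE 0.38, adjusted p = 0.000457). It was between -0.44 and 0.46 on average in the 4 groups outside the clones, so the 3 TC32 clones were its only high group. ZNF468 was even in TC32 clones, at 1.18, 1.41 and 1.28, and uneven in TC71 clones, at -0.42, -4.56 and -4.25 (difference 4.37, adjusted p = 0.0235). ZNF432 stood at 2.46, 3.31 and 0.80 in the TC32 clones, against -0.12, -0.26 and -0.12 in the TC71 clones (difference 2.36, adjusted p = 0.0262).

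The other 3 called members differed less. They were ZNF274, which brings a histone methyltransferase to zinc finger gene clusters (difference 0.63, adjusted p = 0.0251), ZNF562 (0.39, adjusted p = 0.0388) and ZNF574 (0.33, adjusted p = 0.00707). ZNF432, ZNF83 and ZNF468 lie within 1 stretch of chromosome 19, from 52534862 to 53345361 in the array annotation, for which the sources used here name no genome build. It holds 8 measured genes, of which these 3 were called. The 5 others, picked only for lying there, were PPP2R1A (0.59, adjusted p = 0.0862), ZNF480 (0.05), ZNF528 (0.09), ZNF701 (0.10) and ZNF611 (0.23), and these 4 zinc finger genes had adjusted p from 0.255 to 0.519. Cross-hybridization between copies was not tested, and the probe sets of ZNF83, ZNF177 and ZNF432 carry the suffix that marks probes shared between transcripts.

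The remaining genes among the 15 largest differences towards TC32 clones had varied roles. CHRDL1, a secreted antagonist of BMP signals, stood at 3.05, 4.69 and 1.83 in TC32 clones, against -1.58, 0.07 and -1.36 in TC71 clones (difference 4.14, adjusted p = 0.0222). MITF, the transcription factor that directs melanocyte development, stood at 1.51, 2.20 and 1.18 in TC32 clones, against 0.51, -2.93 and -2.48 in TC71 clones (difference 3.27, adjusted p = 0.0308). TC71 clone C3 thus came closer to the TC32 clones than to the other TC71 clones. SIGIRR, which damps interleukin-1 and Toll-like receptor signals, was at 2.20, 1.88 and 1.59 in TC32 clones and at -0.31, -0.69 and -0.27 in TC71 clones (difference 2.31, adjusted p = 0.00819). H2BC21, a histone H2B gene, was at 1.65, 2.07 and 1.78 in TC32 clones and at 0.39, -1.04 and -0.03 in TC71 clones (difference 2.06, adjusted p = 0.0496). MT1X, a metal-binding metallothionein gene measured by 2 probe sets, had a difference of 2.32 (adjusted p = 0.0235).

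Smaller called differences in this direction were 1.66 for CRIP1, a LIM domain protein gene, 1.58 for PLCG2, a phospholipase C gene, and 1.52 for MAK, a kinase gene known from male germ cells. UBE2H, a ubiquitin-conjugating enzyme gene of which 1 probe set has 2 alignments (1.51), IFT70A of the cilium transport complex (1.31) and CTPS2, a CTP synthase gene (1.31), completed the 15. PLCG2, MAK and UBE2H were called whichever clone was left out, with adjusted p of at most 0.0171, 0.022 and 0.0108. CRIP1, IFT70A and CTPS2 were not, with adjusted p up to 0.0689, 0.0736 and 0.109. These fits keep the spread shared with the arrays outside the clones. From the clone arrays alone the adjusted p of PLCG2, MAK and UBE2H was 0.408, 0.528 and 0.383.

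The largest difference among the named genes was at ARMCX1, which encodes an armadillo-repeat protein of the mitochondrial outer membrane and lies on chromosome X (annotated at 100805513 to 100809673). It stood at -2.09, -2.09 and -2.02 in TC32 clones C1, C4 and CP, against 5.74, 4.98 and 5.43 in TC71 clones C3, C4A and C5, a difference of -7.45 (SE 1.24), or 175-fold (adjusted p = 0.0104). The TC32 clones all lay at one low level and the TC71 clones within 0.76 of each other. The gene had the same order at 72 h, with means of -2.03 in TC32 and 3.91 in TC71 (adjusted p = 0.0135), and it was 1 of the 5 genes called from the 6 clone arrays alone (adjusted p = 0.00724).

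TNFAIP6 had the smallest adjusted p of the named genes. It encodes a secreted protein that binds hyaluronan in inflamed matrix. Its promoter (chr2:151357342-151357641, plus strand, GRCh38.p14, CG pairs in capitals) is shown because, unlike those above, it holds almost no CG: 2 pairs, a number that 96.2% of promoters reach.
TNFAIP6: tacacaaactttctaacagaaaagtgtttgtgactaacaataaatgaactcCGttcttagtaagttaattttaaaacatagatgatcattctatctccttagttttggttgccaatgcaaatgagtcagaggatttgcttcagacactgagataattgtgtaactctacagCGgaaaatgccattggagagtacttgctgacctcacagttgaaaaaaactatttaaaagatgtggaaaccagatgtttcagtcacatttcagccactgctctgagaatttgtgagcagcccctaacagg
TNFAIP6 stood at -5.55, -6.45 and -5.58 in the TC32 clones, against 0.18, 1.0 and 0.24 in the TC71 clones (difference -6.34, SE 0.38, adjusted p = 6.21e-06). Both probe sets gave it, with -6.71 and -5.96. In the other groups it averaged -1.02 to 1.14, so the 3 TC32 clones stood below every other group. The difference was called under each of the 19 other settings that measured the gene, with an adjusted p of 0.0456 from the clone arrays alone. These settings include the second deposited form of the values, which is identical and could not change the result. Both probe sets carry the suffix that marks probes shared between transcripts, so the setting without such probe sets could not measure TNFAIP6.

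SLC43A3, a nucleobase transporter gene, behaved likewise, at -3.07, -3.15 and -2.90 in TC32 clones and at -0.20, 0.00 and 0.25 in TC71 clones (difference -3.05, SE 0.25, adjusted p = 0.000132). Its 2 probe sets disagreed, however, with differences of -6.03 and -0.07, and the gene's value is their mean. SLC43A3 too was called under the same 19 settings, and likewise could not be measured without shared probe sets. Of the 50 named genes that were called, 24 were called whichever of the 6 clones was left out, and 0 of the 73 named genes passed the test in the opposite direction under any setting. Leaving out a clone keeps the spread shared with the arrays outside the clones, and the 6 clone arrays alone called 3 of the 50.

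MAGEA1, MAGEA3 and MAGEA6, cancer-testis antigen genes of chromosome X that are normally active only in the germ line, were lower in TC32 clones. MAGEA3 stood at -7.90, -7.96 and -5.24 in TC32 clones C1, C4 and CP, against -2.05, 2.65 and 0.46 in TC71 clones C3, C4A and C5 (difference -7.38, SE 1.56, adjusted p = 0.0344). MAGEA6 followed it in every clone, at -7.86, -7.93 and -4.82 in the TC32 clones and at -1.96, 2.63 and 0.52 in the TC71 clones (difference -7.26, adjusted p = 0.035). The 2 genes cannot be told apart with confidence here: each has 1 probe set with 2 alignments, and their promoters are identical in 300 of 300 bases, so that of MAGEA3 (chrX:152698544-152698843, plus strand, GRCh38.p14, CG pairs in capitals) stands for both.
MAGEA3: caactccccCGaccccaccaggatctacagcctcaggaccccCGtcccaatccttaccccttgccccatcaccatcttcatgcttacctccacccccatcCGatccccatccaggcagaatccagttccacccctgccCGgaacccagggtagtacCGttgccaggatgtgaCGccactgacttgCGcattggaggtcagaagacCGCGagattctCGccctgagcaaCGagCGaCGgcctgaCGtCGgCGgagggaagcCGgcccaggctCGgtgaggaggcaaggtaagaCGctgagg
MAGEA1 stood at -3.69, -3.40 and -3.37 in TC32 clones, against 4.12, 3.15 and -0.22 in TC71 clones (difference -5.84, SE 1.06, adjusted p = 0.0176). In the 72 h arrays the order was the opposite for all 3 genes. The MAGEA3 means there were 2.90 in TC32 and -3.90 in TC71 (adjusted p = 0.0224), and those of MAGEA1 were 3.75 in TC32 and -1.31 in TC71 (adjusted p = 0.014). With each clone left out in turn, MAGEA1 stayed called (adjusted p of at most 0.0467), while the adjusted p of MAGEA3 and MAGEA6 reached 0.104 and 0.111. From the clone arrays alone the adjusted p of MAGEA1, MAGEA3 and MAGEA6 was 0.512, 0.512 and 0.513.

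Over the 31 measured cancer-testis genes, 3 were called lower (9.68%, against 0.988% of all genes) and 0 higher, with a median difference of 0.02, the same as over all genes. That share counts MAGEA3 and MAGEA6 separately, although they cannot be told apart with confidence. The setting without shared probe sets could measure none of the 3, MAGEA1 included, and cross-hybridization between the family's members was not tested. MAGEA12 (difference -6.54, adjusted p = 0.0768) and the pseudogene MAGEA5P (-4.78, adjusted p = 0.0606) did not pass. Differences near 0 were found for MAGEA4 (-0.04), MAGEA8 (0.03), MAGEA10 (0.01) and MAGEA11 (-0.09), with adjusted p from 0.491 to 0.987. Other members were high in 1 clone: PAGE1 stood at 6.62 in TC71 clone C3 and between -1.12 and 0.92 in the 5 others, and GAGE3 at 5.13 in C3 and between -1.52 and 0.04 in the others. The members named in this paragraph beside the called ones were chosen after their values were seen.

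Genes that handle xenobiotics and carry solutes differed singly. AKR1C3, an aldo-keto reductase that converts prostaglandins, steroids and some drugs, stood at -1.66, -0.19 and -0.08 in TC32 clones, against 4.69, 5.30 and 2.46 in TC71 clones (difference -4.79, SE 0.70, adjusted p = 0.00625). It averaged -1.53 to 1.34 in the 4 groups outside the clones, so the 3 TC71 clones were its high group. Of 42 detoxification and NRF2 target genes, AKR1C3 and CYP26B1 were called lower (4.76%, against 0.988% of all genes) and 0 higher, with a median difference of 0.12. CYP26B1, which breaks down retinoic acid, stood at -0.67, -1.52 and -0.84 in TC32 clones and at 0.77, -0.08 and 0.57 in TC71 clones (difference -1.43, adjusted p = 0.00707). Among 30 drug transporter genes, ABCD3, a peroxisomal transporter, was the only one called (difference 0.91, adjusted p = 0.0407), which is 3.33% against 0.651% of all genes. ABCB1, the multidrug efflux pump, stood at -0.66, 0.35 and -1.99 in TC32 clones and at 0.35, -0.73 and -0.89 in TC71 clones (difference -0.34, adjusted p = 0.687), and the clones of the lines overlapped.

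Outside the lists, SLC38A4, an amino acid transporter gene, stood at -0.50, -3.16 and -1.75 in TC32 clones and at 0.91, 1.52 and 0.97 in TC71 clones (difference -2.94, adjusted p = 0.00819). ABCA8, a lipid transporter gene, had means of -0.15 ± 0.41 in TC32 clones and 1.87 ± 0.37 in TC71 clones (adjusted p = 0.0308). SLCO4C1, an organic anion transporter gene, had a difference of -4.57 (adjusted p = 0.00707), but its only probe set has 2 alignments, which makes the value uncertain. All 3 were lower in TC32 clones.

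Single genes of the extracellular matrix and of secreted signals differed in either direction. MGP, which keeps cartilage and vessels from calcifying, stood at 0.10, 2.29 and -0.04 in TC32 clones, against 5.23, 3.90 and 5.79 in TC71 clones (difference -4.19, SE 0.69, adjusted p = 0.0103). PDGFC, a platelet-derived growth factor ligand that EWS-FLI1 activates, stood at -1.50, -2.64 and -1.95 in TC32 clones and at 1.25, 0.49 and 0.27 in TC71 clones (difference -2.70, SE 0.31, adjusted p = 0.00126). COL21A1, a minor collagen gene, was at -1.34, -2.36 and -2.10 in TC32 clones and at 0.44, 0.19 and 0.27 in TC71 clones (difference -2.24, adjusted p = 0.000457). Every TC32 clone lay below every TC71 clone at these 3 genes, but the clones of the lines did not overlap at any called gene.

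COL5A1, a fibrillar collagen gene, was the one called member of 61 collagen and matrix genes that was higher in TC32 clones (difference 0.40, adjusted p = 0.00707), and its 3 probe sets gave 0.97, 0.12 and 0.10. MFAP4, a microfibril gene, had means of -2.69 ± 2.18 in TC32 clones and 0.91 ± 0.66 in TC71 clones (adjusted p = 0.0445). ADAM23, a membrane protein of the ADAM family (-1.35, adjusted p = 0.0223), PCDH7, a protocadherin (-1.02, adjusted p = 0.0465), and CNTNAP2, a neurexin-like adhesion protein (-0.76, adjusted p = 0.0317), were lower too. TGFBR2, the TGF-beta receptor gene that EWS-FLI1 represses, had a difference of -0.66 (adjusted p = 0.0251), from probe sets at -1.31 and -0.01. Of 61 collagen and matrix genes 1 was called higher and 2 lower, of 59 adhesion molecules 0 and 2, of 52 genes of TGF-beta, BMP and WNT signals 0 and 1, of 43 genes of IGF, PDGF, FGF and KIT signals 0 and 1, of 36 matrix proteases and inhibitors 0 and 1, and of 25 genes of the retinoic acid pathway 0 and 1. Over all genes the shares were 0.651% higher and 0.988% lower, so at these list sizes single calls are near the background. The 11 fibroblast markers, some of them matrix genes, had a median difference of -0.57, with 3 of 11 higher in TC32 clones and 0 called, and their part in the matrix values was not tested.

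Regulators of transcription among the 15 largest falls included HDAC9, a histone deacetylase gene, at -2.77, -1.62 and -5.69 in TC32 clones and at 0.60, -0.12 and 0.02 in TC71 clones (difference -3.53, adjusted p = 0.035). ZKSCAN7, a zinc finger gene outside chromosome 19, had a difference of -3.37 (adjusted p = 0.0137) and HDGFL3, of the hepatoma-derived growth factor family, one of -3.67 (adjusted p = 0.000457), although 1 of its 5 probe sets, on the opposite strand, gave 0.02. HDGFL3 was also lower in TC32 at 72 h (-2.94, adjusted p = 0.000417). MEIS1, a homeobox gene, was the only called member of 38 HOX, PBX and MEIS genes (difference -1.03, adjusted p = 0.0208). That is 2.63%, against 0.988% of all genes called lower, and a single call does not set a list of this size apart. The largest falls were completed by PARM1, a mucin-like membrane protein gene (-3.77), POPDC3, a Popeye-domain gene of muscle (-3.31), and DGKG, a diacylglycerol kinase gene (-3.26), with adjusted p of 0.0197, 0.0204 and 0.0262.

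The genes around which the compound was designed did not separate the clones. EWSR1 stood at 0.01 ± 0.16 in TC32 clones and -0.08 ± 0.09 in TC71 clones (adjusted p = 0.54), and FLI1 at -0.09 ± 0.08 in TC32 clones and -0.21 ± 0.51 in TC71 clones (adjusted p = 0.726). The probe sets do not distinguish the fusion transcript from the 2 normal genes. DHX9 stood at 1.23, 1.20 and 1.68 in TC32 clones and at 0.81, -0.04 and 1.61 in TC71 clones (difference 0.58, SE 0.42, adjusted p = 0.49). TC71 clone C4A was the low one.

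Of 37 genes that EWS-FLI1 activates, 4 were called, all lower in TC32 clones (10.8%, against 0.988% of all genes), with a list median of -0.04. Beside PDGFC they were CAV1, which forms caveolae (-0.98, adjusted p = 0.0489), MYC (-0.62, adjusted p = 0.0348) and the kinase gene JAK1 (-0.55, adjusted p = 0.025). CAV1, MYC and JAK1 each lost the call when some clone was left out, with adjusted p of up to 0.147, 0.0841 and 0.0607, and PDGFC did not. From the clone arrays alone PDGFC was not called either (adjusted p = 0.383). CCND1, the cyclin D1 gene and another target, stood at 0.26, 0.03 and 0.60 in TC32 clones and at 0.85, 1.29 and 0.73 in TC71 clones (difference -0.66, adjusted p = 0.0562). Of 33 genes that EWS-FLI1 represses only TGFBR2 was called (lower, 3.03%, against 0.988% of all genes), and the list median was -0.01.

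SESN1, a stress-induced regulator of growth signals, was called higher in TC32 clones (difference 0.72, adjusted p = 0.021) and PHLDA3, an inhibitor of AKT, lower (-0.61, adjusted p = 0.0496). The ubiquitin ligase gene MDM2 (-0.05), the cell cycle inhibitors CDKN1A (-0.71) and CDKN2A (0.04) and the growth factor receptor IGF1R (-0.44) were not called, with adjusted p from 0.132 to 0.506. ITGB2, an integrin subunit of white blood cells, was 1 of 19 blood cell markers and the only one called (-1.45, adjusted p = 0.0103), which is 5.26%. RPL15 was the only one of 77 cytosolic ribosomal protein genes (-0.46, adjusted p = 0.0103), which is 1.3%. Over all genes 0.988% were called lower, and single calls do not set such lists apart. No member was called among 50 G2/M and mitosis genes (median difference 0.16), 58 DNA replication genes (-0.01), 43 genes of the unfolded protein and integrated stress response (-0.35), 28 cholesterol synthesis genes (-0.19), 41 apoptosis regulators (0.04), 50 muscle protein genes (0.02) or 54 neuronal and neural crest genes (0.02). In limma's test an unadjusted p under 0.05 was found for 8, 5, 3, 5, 12, 6 and 13 of these, against 1932 of all 12750 genes. With 1.64% of all genes called, lists of this size with no call are not set apart from the rest. Nor was any called among 19 YAP/TEAD targets (-0.22), 19 antigen presentation genes (0.02), 24 D cyclin and CDK genes (0.04), 43 genes of the fusion partners, RNA helicase A and splicing factors (0.06) or 38 tubulin and microtubule genes (0.03), with 5, 0, 7, 3 and 9 at an unadjusted p under 0.05. MYC was the only one called of 38 immediate early genes (lower, 2.63%, against 0.988% of all genes). In all, 16 of the 34 lists had no called member. Of the markers of other cell types, 0 of 13 epithelial, 0 of 9 endothelial and 0 of 11 fibroblast genes were called (median differences 0.02, 0.02 and -0.57). Of 10 Ewing sarcoma markers JAK1 alone was called (lower, 10%, against 0.988% of all genes). EPCAM, an epithelial marker picked after its values were seen, stood at 0.28, -0.02 and 2.88 in TC32 clones and at 3.41, -0.06 and 0.51 in TC71 clones. It was thus highest in 1 clone of each line, CP and C3. The median of the 13 epithelial markers was between -0.02 and 0.04 in the 6 clones.

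The TC71 clones differed from each other almost as much as clones of the 2 lines did, and the TC32 clones less. Over 1794 genes with an SD of at least 0.5, the root mean square difference between 2 clones was 1.16 to 1.44 among TC32 clones and 1.56 to 1.65 among TC71 clones, and 1.44 to 2.01 between a TC32 and a TC71 clone. Among untreated arrays of a line it was 0.51 to 1.19 in TC32 and 0.49 to 0.81 in TC71. The array nearest to TC71 clone C5 was TC32 parental replicate 1 (1.14), ahead of TC71 parental replicates 1 and 2 (1.17 each). That array was also the nearest to TC32 clone C1 (1.15). A range over 4 among the 3 clones was found at 75 genes in TC32, where clone C4 was the outlying one at 46, and at 120 genes in TC71, where C3, C4A and C5 were so at 46, 36 and 38.

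The genes with the widest ranges among TC32 clones were interferon-stimulated genes, which cells switch on after interferon or sensing of viral or self nucleic acids. IFI27 stood at -0.10, 9.70 and -0.11 in TC32 clones C1, C4 and CP and at -0.14, 1.04 and -0.14 in TC71 clones C3, C4A and C5. CXCL10, a chemokine gene, was at -0.07, 8.70 and -0.19 in TC32 clones and at -0.27, 2.11 and -0.50 in TC71 clones. C4 was high in each and C4A stood somewhat above the other TC71 clones. IFI44L reached 7.29, IFI6 4.72 and BST2, which tethers viruses to the cell, 4.59 in C4. Over 42 interferon-response genes the median was -0.01, 4.57 and -0.12 in the TC32 clones and -0.18, 1.01 and -0.08 in the TC71 clones.

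No interferon gene was called between the lines (1 had an unadjusted p under 0.05), although 38 of the 42 were higher on average in TC32 clones and the list's median difference was 1.04. Without C4 the list's median difference was 0.01, and without any other single clone it was 0.85 to 2.09. Outside the clones the highest median was that of TC71 72 h replicate 2 (3.72), while its 2 companions stood at 0.06 and 0.05. With clones C4 and C4A both left out, the number of called genes was 206, of which 100 were among the 209.

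**Figure D3:**
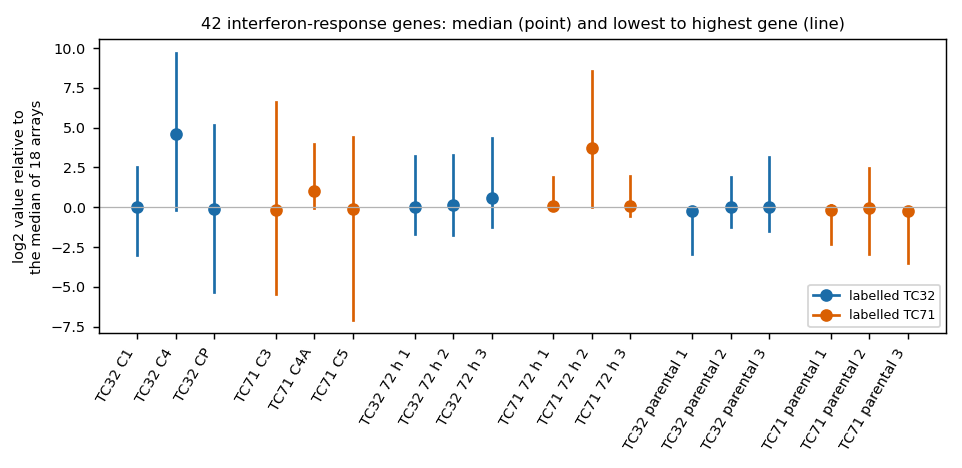
Median (point) and lowest to highest value (line) of 42 interferon-response genes in each of the 18 arrays, on the log2 scale relative to the median of the arrays. Blue marks arrays labelled TC32 and orange arrays labelled TC71; the medians of TC32 clone C4 (4.57), TC71 clone C4A (1.01) and TC71 72 h replicate 2 (3.72) stand above the other arrays.

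Among TC71 clones the widest gene was KRT12, a keratin of the cornea, at 10.68 in C3 and -0.02 in both C4A and C5, against 0.00, -0.01 and 0.04 in the TC32 clones. KRT20, a keratin of gut epithelium, stood at 7.95, -0.08 and -0.06 in C3, C4A and C5, against -0.03, -0.02 and 0.04 in the TC32 clones. TPD52L1, of the tumour protein D52 family, was highest in C4A, at 2.12, 7.62 and -0.52 in the same order. None of these 3 passed (adjusted p from 0.389 to 0.418), since 1 clone set each mean. IFIT1, an interferon-induced gene, was lowest in C5, at -4.43, 1.18 and -7.09.

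The next comparison asked whether the difference between the clones was already present between the lines. In the 72 h arrays 838 genes were called between TC32 and TC71 (6.57%), and in the parental arrays 6 (0.0471%). The parental count was 266 without TC32 parental replicate 1. The 3 comparisons share no array. Across genes, which are not independent replicates, the difference between the lines in parental arrays went with that at 72 h (Pearson r = 0.57, Spearman rho = 0.34, 12750 genes), but the difference between clones went with neither (r = 0.02 and rho = -0.01 with parental arrays, r = -0.01 with 72 h arrays). Over the 1794 more variable genes r was 0.62 between parental and 72 h arrays and 0.02 and -0.02 between clones and these. Without TC32 parental replicate 1 it was -0.03 between clones and parental arrays.

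**Figure D4:**
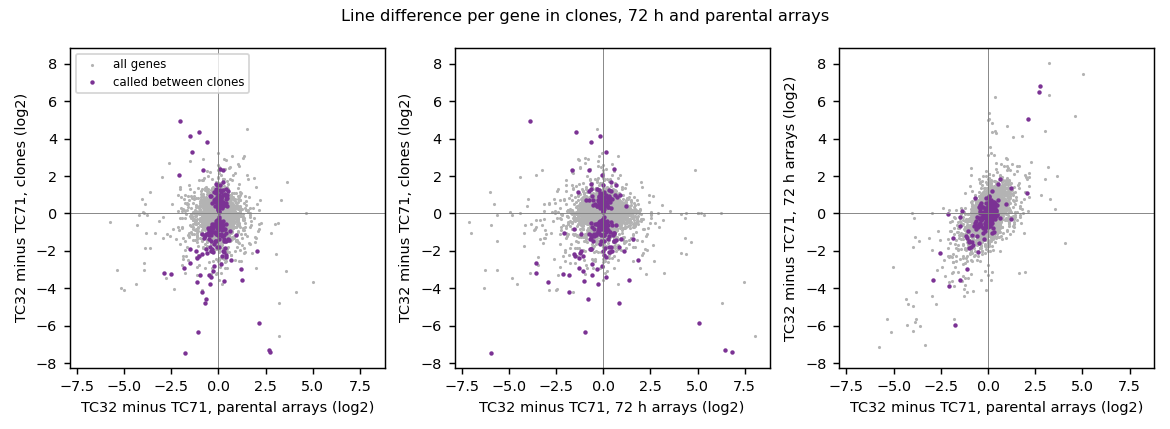
TC32 minus TC71 per gene on the log2 scale, for clones against parental arrays (left), clones against 72 h arrays (middle) and 72 h against parental arrays (right). Grey points are all genes drawn and purple points those called between clones; the cloud is drawn out along the diagonal only in the right panel (r = 0.57, against 0.02 and -0.01).

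Of the 209 called genes, 117 had the same direction in the parental arrays and 92 the opposite one, and at 72 h the split was 100 to 109. Called at 72 h as well were 41, which is 19.6% of the clone calls and 4.89% of the 72 h calls, 21 in the same and 20 in the opposite direction. In the parental arrays 1 was called too, TMEM248, a membrane protein gene named because it was the only one (0.38 in clones, 0.47 in parental arrays, adjusted p = 0.00707 and 0.0189). Without TC32 parental replicate 1, 19 of 210 clone calls were among the 266 parental calls, 12 in the same direction and 7 in the opposite one.

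The difference of the differences was tested directly, as TC32 minus TC71 in clones minus the same in parental arrays. It passed for 30 genes (0.235%), 13 positive and 17 negative, and 26 of these were among the 209. At 289 genes it passed without TC32 parental replicate 1, among them 82 of 210 clone calls. ZNF83 (7.01, adjusted p = 0.00657), ZNF177 (4.43, adjusted p = 0.00657) and H2BC21 (4.16, adjusted p = 0.0269) gave the largest positive values. TNFAIP6 (-5.28, adjusted p = 0.00343), SLC38A4 (-4.14, adjusted p = 0.0269) and ABCA8 (-4.06, adjusted p = 0.0193) gave the largest negative ones. MAGEA3 had -10.14 (adjusted p = 0.0827) with all arrays and -11.29 (adjusted p = 0.0253) without TC32 parental replicate 1. The TC71 parental arrays were themselves split at MAGEA3, at 1.18, -4.84 and 0.93 in replicates 1, 2 and 3.

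ALK, a receptor kinase gene of the nervous system, was 1 of 4 genes that passed this test without being called between the clones. It averaged 0.30 ± 0.39 in TC32 clones and 0.14 ± 0.42 in TC71 clones (adjusted p = 0.704). In the parental arrays it averaged -1.83 in TC32 and 0.30 in TC71 (adjusted p = 0.0189), and at 72 h -1.82 in TC32 and 0.01 in TC71 (adjusted p = 0.00128). The TC32 clones thus stood with both sets of TC71 arrays at this gene. The interaction was 2.29 (adjusted p = 0.0269), and the 3 others were ATIC, ING1 and RNASET2, named because they completed the 4.

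Position on the chromosomes is a property that the choice of clones did not use. Over 8132 genes with an SD of at least 0.1 the median difference was 0.03, and 54.2% were higher in TC32 clones. Arm 15q had the lowest median of 41 arms, -0.27 over 259 genes, with 82.2% lower in TC32 clones. Relative to all varying genes of the array, the median of 15q was -0.39, -0.66 and -0.24 in TC32 clones C1, C4 and CP and -0.53, 0.15 and -0.12 in TC71 clones C3, C4A and C5. TC71 clone C3 lay among the TC32 clones here. Called genes on 15q were 5, all lower in TC32 clones (1.31% of 381, against 0.988% of all genes), HDGFL3 and the RNA-binding protein gene CPEB1 (-2.80) with the largest differences. In the parental arrays the median difference of 15q was 0.06.

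Arm 22q had 13 called genes, all lower in TC32 clones, which is 3.9% of its 333, against 0.988% of all genes. They ran from LIMK2 (-0.44) to HIRA (-1.31), a histone chaperone gene, and the arm's median was -0.16. On 18q there were 7 of 129, all lower (5.43%, against 0.988%), among them the transcription factor gene TCF4 (-0.63). On 12q 8 of 488 were lower (1.64%) and 2 higher (0.41%), near the shares over all genes. Arm 19q had 11 called higher (2.32% of 474, against 0.651% of all genes) and 2 lower. Genes named only for their arm were chosen after their values were seen.

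Arm 7q had the highest median, 0.28 over 255 genes, with 77.3% higher in TC32 clones. It stood at 0.00, 0.36 and 0.25 in TC32 clones C1, C4 and CP and at 0.00, -0.05 and 0.00 in TC71 clones, so C4 and CP carried it and C1 did not. Arm 11p followed (0.25), at 0.05, 0.13 and 0.37 in TC32 clones and at -0.04, 0.21 and -0.05 in TC71 clones. Arm Xp (0.20) was low in 1 clone, TC71 C3, at -0.54, against -0.08 and 0.01 in the other TC71 clones and -0.01 to 0.01 in TC32 clones. Arm 13q (0.19) was below the other genes in all 6 clones, at -0.03, -0.43 and -0.37 in TC32 clones C1, C4 and CP and at -0.57, -0.72 and -0.08 in TC71 clones C3, C4A and C5. The parental median differences of 7q, 11p, Xp and 13q were 0.02, 0.02, 0.01 and -0.18. Copy number was not measured on these arrays, and its part in the arm values was not tested.

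**Figure D5:**
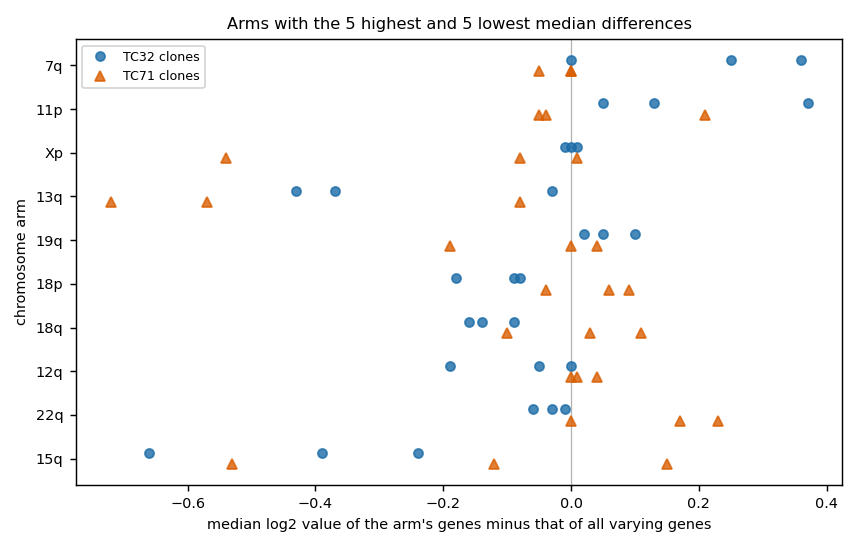
Median log2 value of an arm's genes minus that of all genes with an SD of at least 0.1 on the same array (horizontal axis), for the 5 arms with the highest and the 5 with the lowest median difference between clones (vertical axis). Blue circles are the 3 TC32 clones and orange triangles the 3 TC71 clones; on 15q TC71 clone C3 (-0.53) lies among the TC32 clones, and on 7q TC32 clone C1 (0.00) lies among the TC71 clones.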

How the data were processed

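RNA of 18 samples of TC32 and TC71 cells was measured on Affymetrix human gene expression arrays, 3 arrays in each of 6 groups. The deposited values are log2 levels; per the submitters' processing notes they were made with GeneSpring GX 12.1, and the table itself shows that every probe set has a median of 0 over the 18 arrays. The 2 deposited forms of the values differed by 0. Arrays give no read depth, so the number of arrays limits the precision. Of 22277 probe sets, 62 controls, 583 with several genes and 1258 with no gene were left out. The 20374 others, 20226 of them matched by Entrez identifier with 1672 symbols updated, were averaged per symbol to 12750 genes; 7797 probe sets had an SD under 0.05.

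All 6 groups were fitted together with limma 3.58.1 in R 4.3.3 (12 residual and 0.83 prior degrees of freedom), with two-sided moderated tests and Benjamini-Hochberg adjustment over all genes, after a check on simulated data. The simulated arrays of a gene had the same spread in all groups. That check could therefore not show what a larger spread among the clones does to the calls. Named genes are the 15 largest called differences in each direction, taken from genes at which the clones of the lines did not overlap. Added were up to 4 called members of each list and the 5 largest interactions in each direction. The 5 widest ranges per line and a fixed set of genes of the fusion and the compound completed them. Genes of chromosome Y and XIST were tested and counted but are not named. A few other genes that the rule names are not reported here. The clones and the lists were chosen with earlier results of these data known. Replicate numbers of parental arrays did not pair them (correlations of -0.13, -0.08 and 0.00). Nothing in the labels says that arrays of a group came from separate cultures. Promoters are RefSeq sequences (GRCh38.p14). The alternatives were other normalizations, probe set choices, array weights, filters, thresholds and left-out arrays.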

Additional observations from a re-analysis of the deposited data

Results flagged for a closer look

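The difference between TC32 and TC71 clones departed from that between the parental lines at 14 named genes, by a test of the departure itself in the same fit (clone difference minus parental difference, log2 scale). Among zinc finger genes it was 7.01 for ZNF83 and 4.43 for ZNF177. SIGIRR had 3.14 and H2BC21 had 4.16. TNFAIP6 had -5.28, and among transporters SLC38A4 had -4.14, ABCA8 had -4.06 and SLC43A3 had -2.78. Of the matrix genes COL21A1 had -2.62 and COL5A1 had 0.49. PDGFC had -2.87, JAK1 had -0.93 and CYP26B1 had -1.98. ALK had 2.29, with a difference between parental lines and none called between the clones. The adjusted p of these 14 lay between 0.00343 (TNFAIP6) and 0.0384 (COL5A1). Without TC32 parental replicate 1 all 14 were still called, for example 7.61 for ZNF83 (adjusted p = 0.000825), -5.08 for TNFAIP6 (adjusted p = 0.000939) and 2.55 for ALK (adjusted p = 0.00273). Since clones of both labels lay with TC71 at most genes that set the lines apart, whether the departures arose during selection was not tested.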

How the results depend on the processing

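Of the 209 genes called between clones, a further quantile normalization left 48, array weights 13 and the 6 clone arrays alone 5. An adjusted p under 0.01 left 48 and a 2-fold minimum 98. Without probe sets shared between transcripts only 135 of the 209 were still measured, and 107 genes were called, 97 of them among these 135. Leaving out 1 clone gave 138 (without TC32 C4) to 444 (without TC71 C5) calls. The 7 called zinc finger genes of chromosome 19 became 2, 1, 0, 3 and 4 under the first 5 of these settings, 3 without clones C4 and C4A, and 3 to 10 over the settings that left out 1 clone or the shared probe sets; the median difference of that list was 0.05 to 0.11 without 1 clone. Leaving out 1 array gave 364 to 864 calls for TC32 72 h minus TC71 72 h (838 with all), 0 to 266 between parental lines (6 with all) and 6 to 289 for the difference of the differences (30 with all, 55 after quantile normalization). Of the 50 called named genes, 16 were called after quantile normalization, 6 with array weights and 3 from the clone arrays alone. The cause of these changes was not tested. Fits of fewer arrays estimate the spread from fewer arrays, and the part of this was not tested either. No paired analysis was possible because the clones carry names and no shared numbers; for the parental lines, whose numbers did not pair the arrays, a replicate block over the 12 numbered arrays gave 25 calls and the same arrays without a block 60. The precision is limited by 3 clones per line, each measured once.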
